A study of Mus musculus with 26 samples.

Results

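The 31 genes described here encode the plasma proteins, apolipoproteins, coagulation factors, metabolic enzymes and surface receptors for which hepatocytes, the parenchymal cells of the liver, are known. They were chosen by name: every non-control probe whose gene name equals one of the 31 was taken. A probe was found for 30 of them, through 41 probes, out of 26665 genes measured, and Pck1, the enzyme that commits oxaloacetate to gluconeogenesis, had none under that name. None of the 30 was lost to the filter on dim probes.

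Hepatocytes secrete most of the protein of blood plasma, dispose of ammonia through the urea cycle, break down amino acids and release glucose. The genes for these functions are switched on by a shared set of liver transcription factors, among them HNF1, HNF4, FOXA and C/EBP proteins, and their messenger RNAs are so abundant in liver that they are often seen in preparations of other liver cells. Non-parenchymal cells, the fraction studied here, are the remaining liver cells, such as endothelial cells, Kupffer macrophages, stellate cells and biliary cells.

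The samples came from Foxl1-CRE; RosaYFP mice that were 6 to 10 weeks old, a cross in which a recombinase under the control of Foxl1 switches on yellow fluorescent protein (YFP) at the Rosa26 locus, so that YFP marks the history of the driver and not its present activity. All 7 groups carried both alleles. Animals on DDC, a diet that injures bile ducts and provokes a ductular reaction, were sampled after 3, 7 or 14 days, and non-parenchymal cells labelled as lacking CD45, a surface protein of leukocytes, were separated by YFP. The day 0 group was total non-parenchymal cells of chow-fed mice, labelled pre-YFP, which were not sorted. Diet, sorting and the CD45 gate therefore cannot be told apart in any comparison with day 0. No array of YFP-negative day 7 or 14, or of YFP-positive day 7, shared a slide with a day 0 array. Those groups therefore have no comparison with day 0 within a slide.

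Scanner files of 20 of the 26 samples were analysed, 1 array for each sample. Day 0 had 2 arrays. The YFP-negative fraction had 3 each day, and the YFP-positive fraction had 4 after 3 days, 3 after 7 and 2 after 14. No label says whether the samples of a group came from separate animals, so the p-values measure the spread between these samples, which may be technical. Between 81.0 and 91.2 percent of the spots of an array were well above background. The lowest share was on YFP-positive day 3 array 4. The 2 day 0 arrays had the highest shares, 89.9 and 91.2 percent, and no sorted array was above 88.3 percent. The part of this in the comparisons with day 0 was not tested. All 8 biliary marker genes and all 8 endothelial marker genes were well above background on every array, and so were 27 of the 30 hepatocyte genes. In YFP-positive against YFP-negative cells, averaged over days, 0.641% of all genes passed the test. Of the 8 biliary markers Cftr and Cldn7 passed, with log2 differences of 2.48 and 3.54. Of the 8 stellate or fibroblast markers Col1a1, Lrat and Lum passed, with log2 differences of -4.95, -2.59 and -4.01. The other markers on these lists did not pass. A level below is the log2 processed signal of a gene's brightest probe minus the 75th percentile of the array, so 1 unit is a doubling, 0 is the array's 75th percentile, and levels of different genes are not set against each other because probes differ in response.

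The gate on CD45 was not seen as a lower level of its gene. Ptprc, which encodes CD45, read -1.81 and 1.46 on the unsorted day 0 arrays and from -7.55 to 4.38 on the sorted ones, of which 10 of 18 lay above both day 0 arrays. The highest were YFP-negative day 7 arrays 3 and 4, both at 4.38, and YFP-positive day 7 arrays 3 and 4, at 4.02 and 3.92. The difference between sorted cells and day 0 was 0.97 ± 2.13 (adjusted p = 0.859 in limma). The sorted fractions are therefore called by their labels and not described as free of leukocytes, and the part of leukocyte RNA in the differences below was not tested.

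Sequences of the members to which the results return are shown first, because they identify what was measured and what the genes share. The capitals in the promoter windows mark GTTAAT, a core of the HNF1 motif, or ATTAAC, its reverse complement. Each window holds the 250 bases before the transcription start in RefSeq GRCm38.p6, read along the gene. Alb encodes serum albumin, and its window is chr5:90460620-90460869 on the plus strand. Apoc2 encodes the activator of lipoprotein lipase, and its window is chr7:19677942-19678191 on the minus strand. Fga, Fgb and Fgg encode the chains of fibrinogen, the clot-forming plasma protein, and lie together on chromosome 3, with windows at chr3:83025903-83026152 (plus), chr3:83049864-83050113 (minus) and chr3:83007474-83007723 (plus).
Alb promoter: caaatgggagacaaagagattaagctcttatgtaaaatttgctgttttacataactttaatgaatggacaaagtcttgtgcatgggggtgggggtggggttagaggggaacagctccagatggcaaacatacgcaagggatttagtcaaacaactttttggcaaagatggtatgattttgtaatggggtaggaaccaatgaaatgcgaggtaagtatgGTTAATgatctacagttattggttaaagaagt
Apoc2 promoter: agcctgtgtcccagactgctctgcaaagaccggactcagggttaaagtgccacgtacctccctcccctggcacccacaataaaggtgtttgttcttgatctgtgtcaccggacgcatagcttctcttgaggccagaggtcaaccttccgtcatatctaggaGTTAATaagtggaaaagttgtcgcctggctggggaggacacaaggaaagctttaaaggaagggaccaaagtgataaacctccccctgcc
Fga promoter: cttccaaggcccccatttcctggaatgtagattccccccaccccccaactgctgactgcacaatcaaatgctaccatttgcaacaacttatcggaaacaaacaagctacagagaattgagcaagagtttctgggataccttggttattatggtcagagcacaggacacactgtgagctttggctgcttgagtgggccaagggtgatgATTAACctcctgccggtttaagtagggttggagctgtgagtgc
Fgb promoter: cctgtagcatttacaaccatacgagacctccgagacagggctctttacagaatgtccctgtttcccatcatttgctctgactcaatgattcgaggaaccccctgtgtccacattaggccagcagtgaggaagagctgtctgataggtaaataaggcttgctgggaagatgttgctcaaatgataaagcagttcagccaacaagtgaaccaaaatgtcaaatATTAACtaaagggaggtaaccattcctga
Fgg promoter: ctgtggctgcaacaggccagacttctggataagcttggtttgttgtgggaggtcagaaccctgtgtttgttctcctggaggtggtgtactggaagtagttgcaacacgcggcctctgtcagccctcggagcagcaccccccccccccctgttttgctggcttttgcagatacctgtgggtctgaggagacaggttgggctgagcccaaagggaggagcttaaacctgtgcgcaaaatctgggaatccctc

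GTTAAT stood 32 bases before the start of Alb, 89 before Apoc2, 43 before Fga and 29 before Fgb, and was not in these letters of the Fgg window. Of the 26 listed genes with a window, 6 held it on either strand (23.1%), against 7.5% of the windows of 27025 genes. The 6 were Alb, Apoc2, Fga, Fgb, G6pc and Pck1. The HNF4 core CAAAGT was in 7 of the 26 (26.9% against 14.1%), among them Alb and Apoc2, and the TATA box TATAAA in 5 (19.2% against 14.3%). The FOXA core TGTTTAC was in 2 (7.7% against 3.5%) and the C/EBP core TTGCGC in 1, Fgg (3.8% against 6.1%). Both strands were searched, and no match in a listed gene overlaps another. A match is a run of letters in a window and no evidence of binding, and no array measured binding.

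The probes of Alb, Apoa1 and Hpd are shown because these genes went opposite ways on one array described below. Their positions, as the scanner files give them on mm9, are chr5:90901598-90901657, chr9:46037921-46037980 and chr5:123622237-123624360.
Alb probe: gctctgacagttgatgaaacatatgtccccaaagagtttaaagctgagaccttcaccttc
Apoa1 probe: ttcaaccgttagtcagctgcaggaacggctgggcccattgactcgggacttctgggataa
Hpd probe: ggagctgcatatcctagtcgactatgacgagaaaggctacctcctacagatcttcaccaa

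Hepatocyte genes were measured in every group, and they varied more between arrays of a group than most genes did. The median within-group SD of the 30 genes was 1.45 log2 units, against 0.93 for all genes, and 24 of the 30 had a larger SD than that median. The range over the 20 arrays ran from 2.93 log2 units for Alb to 10.05 for Hal, with a median of 6.45, and was above 5 for 20 genes. In limma's moderated F-test over the 7 groups none of the 30 passed (background 0.03% of genes), and 5 had an unadjusted p under 0.05, against 11.4% of all genes. Day 0 had the lowest group mean for 12 genes and YFP-negative day 7 the highest for 16.

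The level of the whole list moved with single arrays. The mean over the 30 genes was -1.15 and -0.4 on the 2 day 0 arrays. YFP-negative arrays gave 0.15, -1.68 and 1.29 at day 3, 1.64, 2.59 and 0.59 at day 7, and 1.45, 1.37 and -0.84 at day 14. YFP-positive arrays gave 1.24, -0.08, 0.2 and -1.28 at day 3, -0.77, -0.35 and 0.97 at day 7, and 1.18 and -0.13 at day 14. On this measure all 3 YFP-negative day 7 arrays and both YFP-positive day 14 arrays lie above both day 0 arrays, and the other groups overlap day 0. In bulk RNA, fewer hepatocytes and less RNA per hepatocyte cannot be told apart, and the part of hepatocyte RNA carried over into the sorted fractions was not tested.

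Array 3 of YFP-negative day 7 was above a gene's own median over arrays for 30 of 30 genes and the highest of 20 for 16 of them. It read above both other arrays of its group for 27 of the 30 genes and below both for 0, where 21.4% and 45% of all genes did. It was also the highest array for 7 of 16 cytochrome P450 and conjugation genes, 5 of 10 bile acid genes, 6 of 12 genes of further steps in the same metabolic pathways and 10 of 23 other plasma protein genes, but for 1 of 14 hepatocyte transcription factors (Ppara). The shares of all genes that were above their own median or highest on this array are not given here. At the other end, array 3 of YFP-negative day 3 read below both other arrays of its group for 26 of the 30 genes, while Ambp, Fga and Fgg read above both. Array 3 of YFP-negative day 14 read below both others for 28 of 30, with Ambp again the 1 gene above both. On those arrays 39.7% and 32% of all genes lay below both others.

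Marker levels of other cell types moved with these low arrays. The mean over the 8 biliary markers was 1.13 on the low day 3 array against -2.56 and -1.27 on the other two, and 1.42 on the low day 14 array against -1.16 and -0.38. The endothelial mean was the lowest of its group on both, at 2.91 against 3.81 and 3.71, and at 2.86 against 3.85 and 3.76. The erythroid mean was -1.97 on the low day 14 array against 1.79 and 3.18. On array 3 of YFP-negative day 7, the means over biliary, stellate, endothelial, macrophage and leukocyte markers lay between those of the other two arrays. The part of these cell types was not tested.

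**Figure D1:**
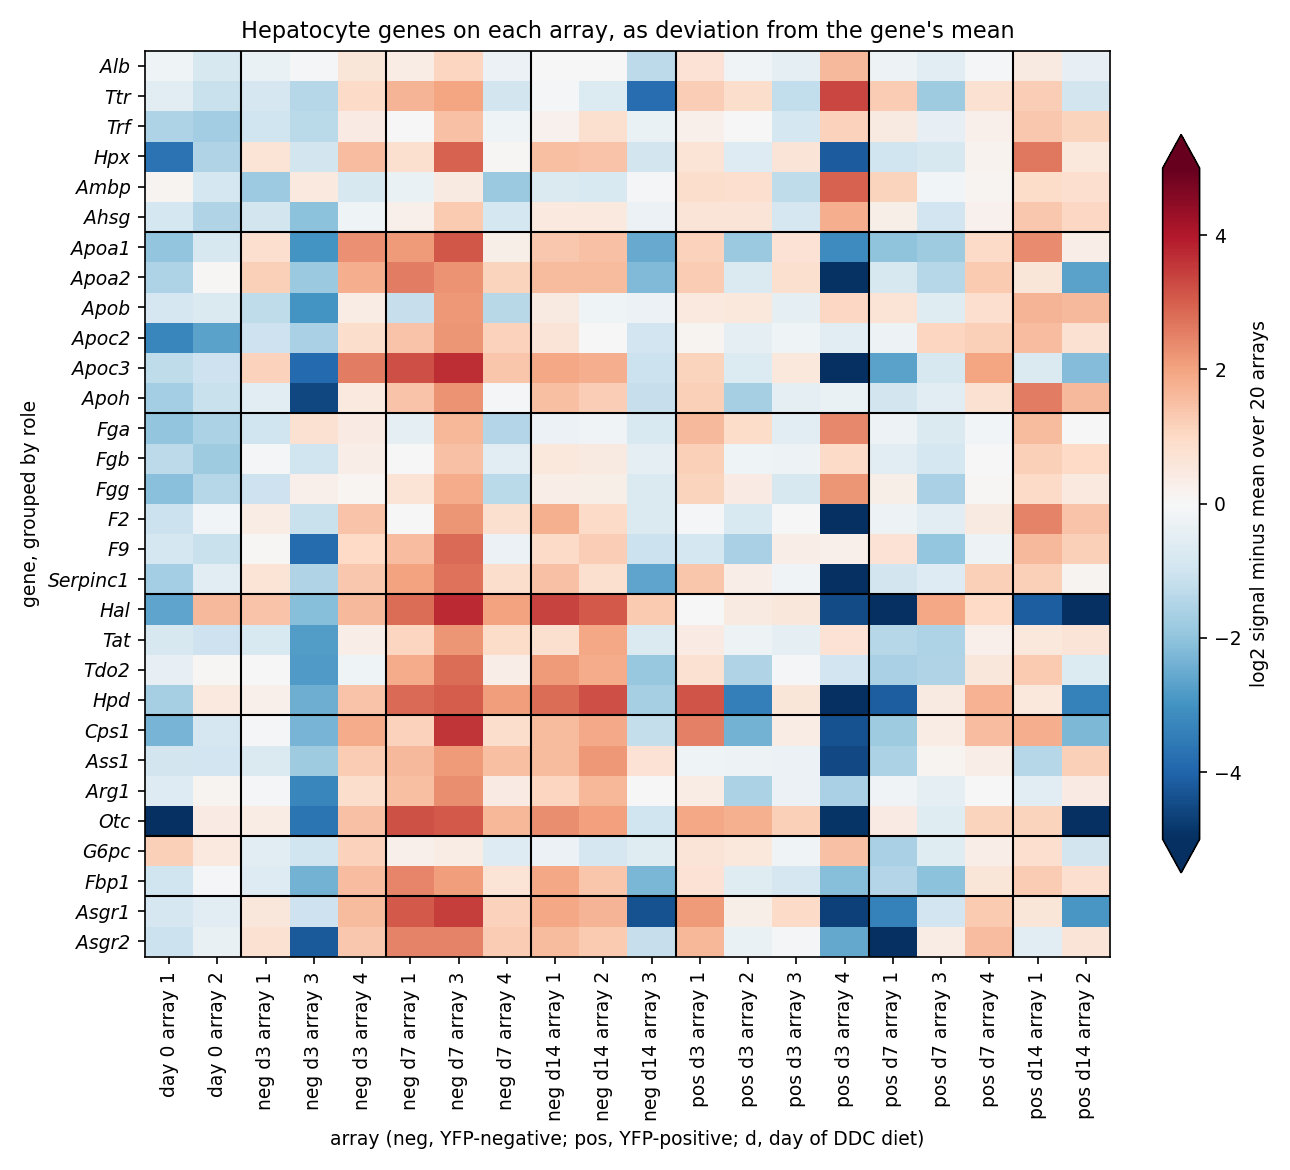
Colour shows the log2 signal of each of 30 hepatocyte genes (rows, grouped by role) on each of 20 arrays (columns, grouped by sorted fraction and day) minus that gene's mean over the arrays. The column of YFP-negative day 7 array 3 is above the gene's own median for 30 of 30 genes, and YFP-positive day 3 array 4 holds 7 highest and 10 lowest values. The shares of all genes for these counts are not given.

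Array 4 of YFP-positive day 3 split the list. It held the highest of the 20 values for Alb, Ttr, Ambp, Ahsg, Fga, Fgg and G6pc, and the lowest for Hpx, Apoa1, Apoa2, Apoc3, F2, Serpinc1, Hpd, Cps1, Ass1 and Asgr1. The share of all genes with their highest or lowest value on this array is not given here. Against the other 3 arrays of its group, 10 of the 30 genes were above all of them and 16 below all of them, where 45.2% and 24.4% of all genes were. The 10 above are fewer than the share of all genes would give, and the 16 below are more. Among the 18 genes of secreted proteins, 8 were above, which is near the share of all genes, and 7 below. Among the 10 enzymes measured, Tat and G6pc were above and 7 below, and both asialoglycoprotein receptor subunits were below.

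The sizes were large. Ambp, the precursor of alpha-1-microglobulin and bikunin, stood at 6.68 on that array and at a mean of 3.88 on the other 3. Ttr, the carrier of thyroxine and of the retinol-binding protein, stood at 1.2 against -1.83, and Alb at 6.22 against 4.62. Serpinc1, which encodes antithrombin, stood at -5.34 against 1.2, and Apoa2, of high-density lipoprotein, at -2.33 against 3.07. A second probe of Serpinc1 read -1.5 on that array and -1.32, -3.51 and -2.33 on arrays 1 to 3. The low reading of Serpinc1 is thus that of 1 probe. Apoa1, the main protein of high-density lipoprotein, stood at -2.46 against 0.68. Hpd, an enzyme of tyrosine breakdown, read -7.91 where the other 3 averaged -1.85. Hpd, Hal and Otc were not well above background on this array, so their readings there show that they were low and not how low, and the rank of Hpd has no meaning. The summed levels of other cell types moved on this array too. Its mean over the 8 biliary markers was 3.66, the highest of the 20 arrays, and the means over stellate, endothelial, macrophage and leukocyte markers (-4.56, 0.44, -2.19 and -5.68) were the lowest. Of the 14 hepatocyte transcription factors, Foxa1, Prox1, Onecut1, Nr5a2 and Nr0b2 were highest there. The part of these cell types in the split was not tested.

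**Figure D2:**
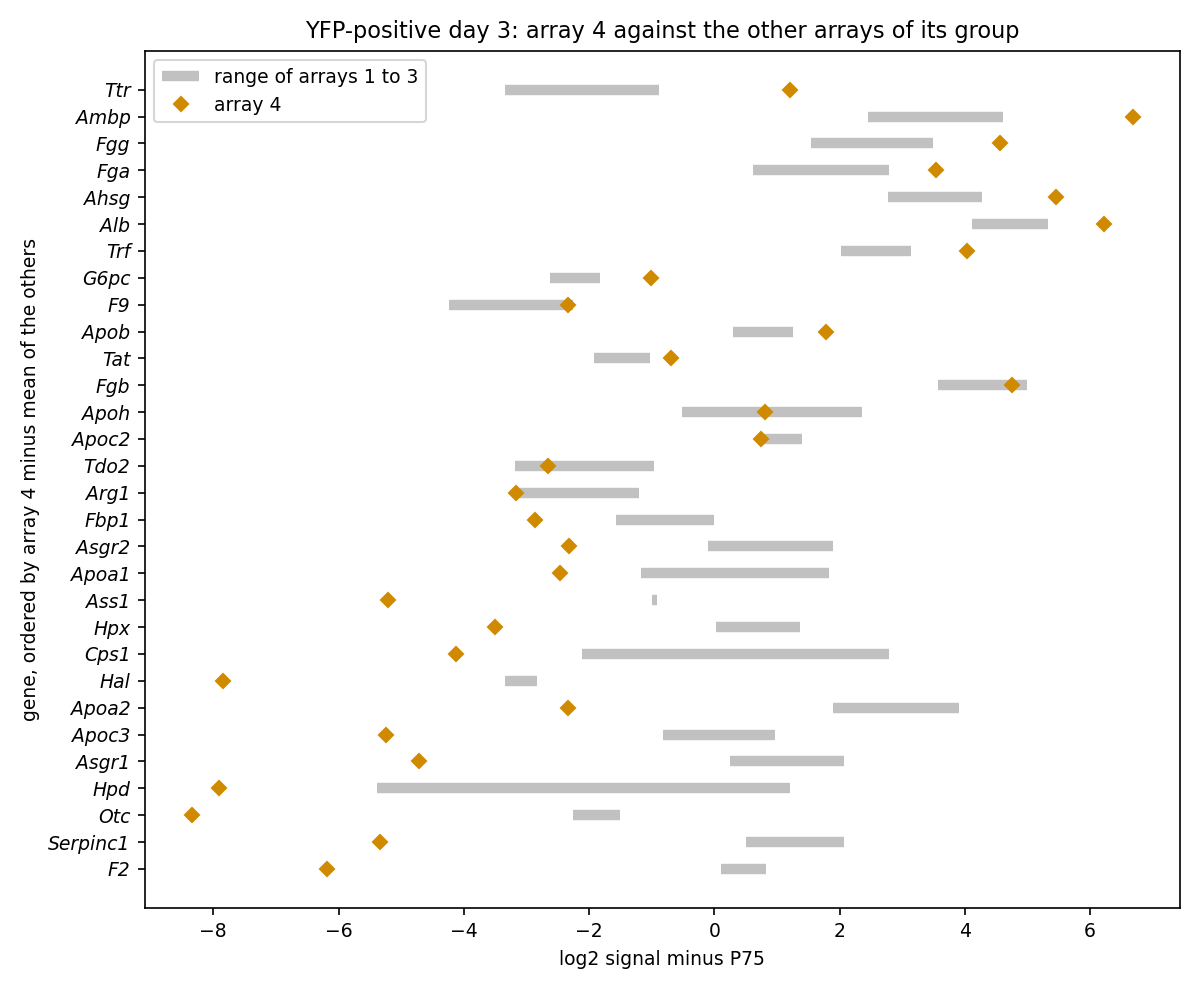
The log2 signal minus the array's 75th percentile of 30 hepatocyte genes on YFP-positive day 3 array 4 (diamonds) is shown with the range of arrays 1 to 3 of the same group (bars), ordered by the difference. The diamonds of 10 genes lie above the bar and those of 16 below it, where 45.2% and 24.4% of all genes did.

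Against day 0, the sorted fractions held more signal for nearly all of the 30 listed genes, and 1 gene, Apoc2, passed the test. Over the mean of the 6 sorted groups, 29 of the 30 genes were positive, with a median log2 difference of 1.08, where 32.6% of all genes were positive and their median was -0.36. The positive count stayed between 25 and 29 under every alternative setting. The arrays of 4 genes did not overlap, all higher in sorted cells (background 1.68%): Trf, Apoc2, Fga and Fgb. The only negative gene was G6pc, the catalytic subunit of glucose 6-phosphatase. The 6 comparisons with day 0 share its 2 arrays.

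In that comparison limma called 0 of the markers of other cell types, and 1 endothelial and 1 stellate or fibroblast marker had an unadjusted p under 0.05. Limma called 0.0525% of all genes higher there, so 0 calls among so few markers do not show that these cell types stayed the same. The share of all genes with an unadjusted p under 0.05 is not given for this comparison. The lists differed in direction. Of the endothelial markers 0 of 8 were positive (median -0.93), and of the erythroid markers 0 of 5 (median -2.09). Biliary markers were positive for 7 of 8 (median 0.7), macrophage markers for 5 of 8 (0.36), leukocyte markers for 4 of 7 (0.04) and stellate or fibroblast markers for 4 of 8 (-0.06). Their part in the higher hepatocyte values was not tested.

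Apoc2 read -1.98 and -1.41 on the 2 day 0 arrays. Among YFP-negative cells Apoc2 read 0.24, -0.34 and 2.15 at day 3, 2.68, 3.47 and 2.41 at day 7, and 1.91, 1.24 and 0.31 at day 14. Among YFP-positive cells Apoc2 read 1.4, 0.77, 1.03 and 0.74 at day 3, 1.01, 2.34 and 2.46 at day 7, and 2.79 and 2.03 at day 14. Both day 0 values lie below all 18 sorted values, of which the lowest was -0.34 (YFP-negative day 3 array 3). Apoc2 was higher in sorted cells by 3.37 ± 0.56 log2 units (SE), or 10.3-fold, with an adjusted p of 0.0228 in limma over all genes (background 0.0525% of genes higher). It rose by 4.55 ± 0.68, or 23.4-fold, in YFP-negative cells at day 7 (adjusted p = 0.0204, background 0.0225%) and by 4.11 ± 0.75, or 17.3-fold, in YFP-positive cells at day 14 (adjusted p = 0.0451, background 0.0413%). The other sorted groups stood above day 0 by 2.38 (YFP-negative day 3, adjusted p = 0.541), 2.85 (YFP-negative day 14, 0.214), 2.68 (YFP-positive day 3, 0.229) and 3.63 (YFP-positive day 7, 0.0828) without passing. Over the mean of days, YFP-positive and YFP-negative cells did not differ in Apoc2 beyond the spread, at 0.22 ± 0.36 (95% interval -0.55 to 0.98). That mean joins differences of opposite sign: 0.3 ± 0.57 at day 3, -0.92 ± 0.61 at day 7 and 1.26 ± 0.68 at day 14, none of which passed.

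The call rests on few arrays. Without day 0 array 1 the adjusted p for all sorted cells was 0.603, without day 0 array 2 it was 0.0831, and over all alternatives the difference ran from 3.08 to 3.65. When slides were fitted as a block it was 3.1 with an adjusted p of 0.599. Without array 3 of YFP-negative day 7 the day 7 difference was 4.24, with an adjusted p of 0.131. The day 14 call in YFP-positive cells was lost in 13 of the 20 fits that left out 1 array, with adjusted p between 0.0505 and 0.414. Within slides, Apoc2 stood above the day 0 array of the same slide by 2.22 (YFP-negative day 3), 3.38 and 2.44 (YFP-positive day 3) and 4.77 (YFP-positive day 14). The other sorted groups, YFP-negative day 7 among them, shared no slide with day 0. In the authors' deposited table Apoc2 is higher in each of the 6 sorted groups, by 4.92 to 28.1 fold, with a false discovery rate between 0 and 2.91 percent. Which of the 26 samples entered that table is not known, so it may rest on a different set. It comes from the same experiment and is not independent.

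Apoc2 lies in a cluster with Apoe, Apoc1 and Apoc4, which are not among the 30 genes and were looked up after its value was seen. In all sorted cells against day 0, Apoe, a lipoprotein ligand made by many cell types, stood at -0.02 ± 0.35. Apoc1 stood at 0.78 ± 0.39 and Apoc4 at 1.84 ± 0.91. None of these neighbours passed.

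Among the plasma carriers, all 6 were positive in sorted cells against day 0. Alb read 4.37 and 3.78 on the 2 day 0 arrays. Among YFP-negative cells Alb read 4.25, 4.49 and 5.2 at day 3, 4.96, 5.64 and 4.27 at day 7, and 4.62, 4.61 and 3.29 at day 14. Among YFP-positive cells Alb read 5.32, 4.42, 4.11 and 6.22 at day 3, 4.33, 4.02 and 4.5 at day 7, and 5.03 and 4.19 at day 14. Alb had the smallest range over arrays of the 30 genes, and its groups overlap throughout. Its difference between sorted cells and day 0 was 0.54 ± 0.51, with a 95% interval of -0.55 to 1.63. Trf, the iron carrier transferrin, was 1.35 and 1.17 at day 0 and between 1.54 and 4.37 in sorted cells, with a difference of 1.88 ± 0.53 (adjusted p = 0.24).

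Hpx read -3.0 and -0.84 on the 2 day 0 arrays. Among YFP-negative cells Hpx read 1.35, -0.23 and 2.23 at day 3, 1.46, 3.63 and 0.74 at day 7, and 2.17, 2.11 and -0.26 at day 14. Among YFP-positive cells Hpx read 1.37, 0.03, 1.32 and -3.5 at day 3, -0.31, -0.12 and 0.86 at day 7, and 3.3 and 1.19 at day 14. Hpx, the heme scavenger hemopexin, had the widest range of group means among the carriers, 4.17. Its day 0 arrays overlap the sorted ones through YFP-positive day 3 array 4. The difference was 3.02 ± 1.11 (adjusted p = 0.379), and without day 0 array 1 it was 1.94. Ahsg, which encodes fetuin-A, stood 1.35 ± 0.62 above day 0, Ttr 0.86 ± 1.14 and Ambp 0.42 ± 0.79.

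Of the apolipoproteins, all 6 were positive as well. Apob, the structural protein of very-low-density and low-density lipoprotein, had the smallest range of group means among them, 2.97. The 2 day 0 arrays gave Apob -0.09 and 0.02. Among YFP-negative cells Apob read -0.52, -2.25 and 1.12 at day 3, -0.39, 2.91 and -0.66 at day 7, and 1.2, 0.55 and 0.46 at day 14. Among YFP-positive cells Apob read 1.24, 1.26, 0.29 and 1.79 at day 3, 1.42, 0.13 and 1.6 at day 7, and 2.46 and 2.38 at day 14. All YFP-positive values of Apob, and the YFP-negative ones at day 14, lie above both day 0 values, while YFP-negative cells at days 3 and 7 overlap day 0. Apob stood 0.94 ± 0.8 above day 0. The other differences from day 0 were 1.66 ± 1.37 for Apoa1, 0.82 ± 1.41 for Apoa2, 1.26 ± 1.58 for Apoc3, an inhibitor of lipoprotein lipase, and 1.7 ± 1.02 for Apoh, a phospholipid-binding plasma protein. Apoa1 and Apoc3, neighbours on chromosome 9, read low together on YFP-negative day 3 array 3 (-2.31 and -4.05) and on YFP-positive day 3 array 4 (-2.46 and -5.24).

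The 3 fibrinogen chains stood above day 0 by similar amounts: 1.95 ± 0.72 for Fga, 1.76 ± 0.51 for Fgb and 1.94 ± 0.75 for Fgg, with adjusted p of 0.379, 0.249 and 0.392. For Fgb the day 0 values were 2.48 and 2.03. Among YFP-negative cells Fgb read 3.73, 2.82 and 4.13 at day 3, 3.78, 5.28 and 3.23 at day 7, and 4.32, 4.27 and 3.37 at day 14. Among YFP-positive cells Fgb read 5.0, 3.59, 3.57 and 4.75 at day 3, 3.29, 2.94 and 3.78 at day 7, and 4.98 and 4.81 at day 14. Both day 0 values of Fgb lie below all 18 sorted values, the lowest of which was 2.82. Fga likewise did not overlap, at -0.81 and -0.41 against a lowest sorted value of -0.32, whereas for Fgg YFP-positive day 7 array 3 at 0.75 lies below day 0 array 2 at 0.96. In the authors' deposited table, Fga passed a false discovery rate of 5 percent in 5 of the 6 sorted groups, and Fgb in 4.

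Of the other coagulation genes, F2, which encodes prothrombin, had the widest range of group means, 3.93, and F9, which encodes factor IX, the smallest, 2.41. F2 read -0.22 and 0.74 on the 2 day 0 arrays. Among YFP-negative cells F2 read 1.22, -0.25 and 2.27 at day 3, 0.84, 3.06 and 1.68 at day 7, and 2.63, 1.82 and 0.12 at day 14. Among YFP-positive cells F2 read 0.75, 0.11, 0.83 and -6.18 at day 3, 0.6, 0.29 and 1.33 at day 7, and 3.33 and 2.27 at day 14. The F2 range comes from YFP-positive day 3, where array 4 lies far under the other 3, whose values are between 0.11 and 0.83. Against day 0, F2 stood at 0.89 ± 1.3 and Serpinc1 at 1.35 ± 1.41.

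The 2 day 0 arrays gave F9 -3.48 and -3.72. Among YFP-negative cells F9 read -2.55, -6.45 and -1.61 at day 3, -1.07, 0.21 and -2.9 at day 7, and -1.64, -1.4 and -3.67 at day 14. Among YFP-positive cells F9 read -3.48, -4.23, -2.26 and -2.34 at day 3, -1.87, -4.53 and -2.85 at day 7, and -0.98 and -1.41 at day 14. F9 values on day 0 lie within the range of the sorted ones, whose lowest, on YFP-negative day 3 array 3, is an array low for most of the list. The F9 difference from day 0 was 1.2 ± 1.02.

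By group, the count and size of the differences from day 0 varied. YFP-negative day 3 had 23 positive genes with a median of 0.69 (background 31.9% positive), but the median was -0.03 without its array 4 and 1.45 without its array 3, and 6 genes lay entirely above day 0 (9.55%). YFP-negative day 7 had 28 (35.1%) with a median of 2.33, and the arrays of 24 genes were entirely above day 0 (background 9.95%). Those 24 included 13 of 18 secreted proteins, 9 of 10 enzymes and both receptor subunits. YFP-negative day 14 had 27 (34.1%) with a median of 1.39, which was 2.18 without its array 3, and 10 genes entirely above (12.1%).

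YFP-positive cells had 20 positive genes at day 3 (40.6%), 23 at day 7 (36.2%) and 24 at day 14 (40.6%), with medians of 0.62, 0.62 and 1.42. The day 3 median ran from 0.19 without day 0 array 1 to 1.65 with the slide block, with 15 to 28 genes positive over the alternatives. Without YFP-positive day 3 array 1, 2, 3 or 4 it was 0.28, 1.03, 0.28 or 1.13, the last with 27 positive. The day 7 median ran from 0.28 without its array 4 to 1.08 with the replicate block, with 18 to 28 positive, and was 0.98 and 1.0 without its arrays 1 and 3. The day 14 median ran from 1.24 without day 0 array 1 to 2.19 without its array 2, with 20 to 28 positive. Entirely above day 0 were 8, 7 and 16 genes, at backgrounds of 6.95%, 11.2% and 17.7%. At day 14 these 16 were 14 secreted proteins together with Tat and Fbp1, and Hal lay entirely below (29.1%). In the 4 sorted groups without a call, 0 of 30 genes passed in limma (backgrounds 0.0525% and 0.0375% for YFP-negative days 3 and 14, 0.0563% and 0.0375% for YFP-positive days 3 and 7), and 2, 4, 6 and 2 had an unadjusted p under 0.05, against 6.5, 11.8, 10.2 and 11.6 percent of all genes. In the authors' deposited table, the number of the 30 genes under a false discovery rate of 5 percent was 2, 17 and 4 in YFP-negative cells at days 3, 7 and 14, and 5, 4 and 16 in YFP-positive cells, all of them higher than day 0. The shares of all probes under that rate were 3.13, 3.38 and 1.4 percent, and 1.8, 10.2 and 16.2 percent.

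**Figure D3:**
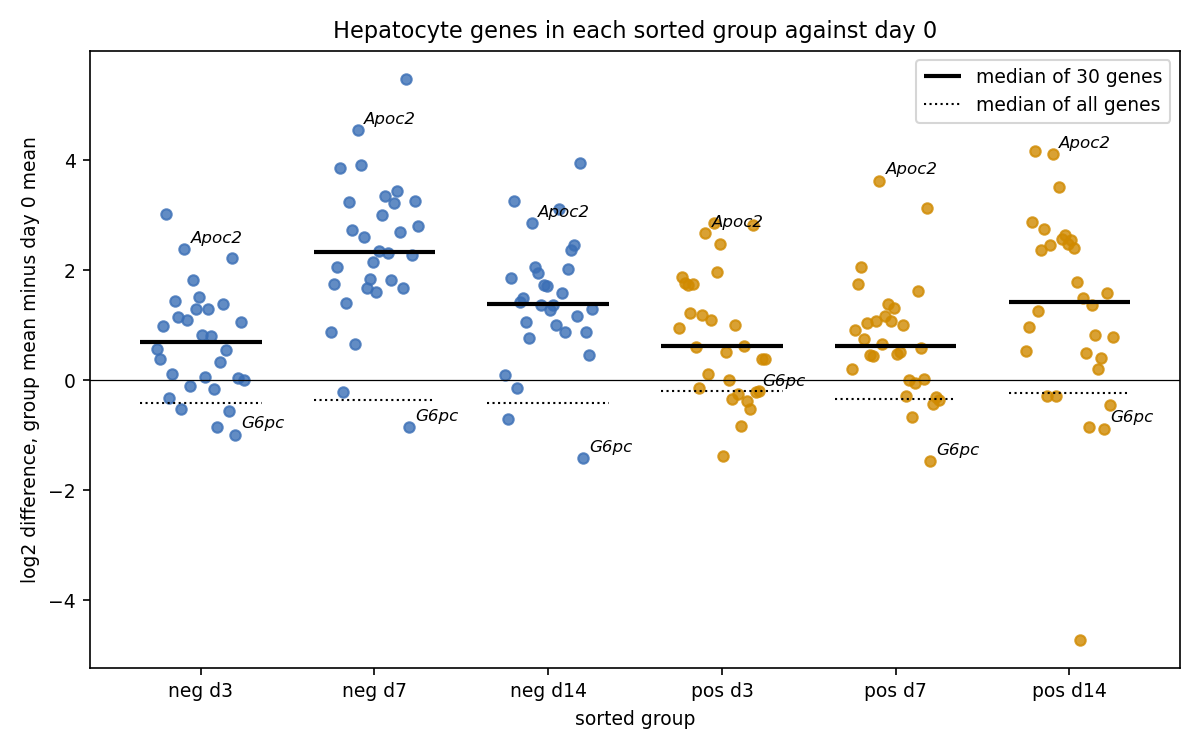
Each point is the log2 difference between a sorted group mean and the day 0 mean for 1 of 30 hepatocyte genes. Solid lines are medians of the 30 genes, from 0.62 to 2.33, and dotted lines medians of all genes, from -0.42 to -0.2.

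Between YFP-positive and YFP-negative cells no hepatocyte gene passed the test, whether over the mean of days or at a single day. Over the mean of days, 12 of the 30 were higher in YFP-positive cells (background 53.8%), with a median of -0.71 against 0.06 for all genes. With limma 0 of the 30 were called (background 0.641%), and 5 had an unadjusted p under 0.05, against 21.4% of all genes. Fitting the slide as a block turned that median to 0.09, so its sign depends on this setting. Split by kind of product, a division made after the values were seen, 11 of 18 secreted proteins were positive (median 0.24), 1 of 10 enzymes (median -1.02) and neither receptor subunit.

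The 5 genes with an unadjusted p under 0.05 went both ways. Ambp and Apob stood higher in YFP-positive cells by 1.3 ± 0.51 (adjusted p = 0.164) and 1.27 ± 0.52 (0.176). All 5 probes of Apob were positive, from 0.83 to 1.27. Hal stood at -4.21 ± 1.06 (adjusted p = 0.069), Apoc3 at -2.19 ± 1.02 (0.228) and Ass1, argininosuccinate synthase of the urea cycle, at -1.55 ± 0.63 (0.178). Ass1 had 2 probes, at -1.55 and -1.32, and Apoc3 2 probes, at -2.19 and -2.31.

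Hal, histidine ammonia-lyase, begins the breakdown of histidine. Its probe lies at chr10:92979135-92979194 on mm9. Hal read -6.02 and -1.76 on the 2 day 0 arrays. Among YFP-negative cells Hal read -1.97, -5.5 and -1.78 at day 3, -0.6, 0.34 and -1.37 at day 7, and 0.01, -0.31 and -2.06 at day 14. Among YFP-positive cells Hal read -3.35, -2.92, -2.83 and -7.85 at day 3, -8.7, -1.45 and -2.39 at day 7, and -7.5 and -9.72 at day 14. The low values are those of YFP-positive day 3 array 4, day 7 array 1 and both day 14 arrays, together with day 0 array 1 and YFP-negative day 3 array 3. Hal was well above background on 3 of 4, 2 of 3 and 1 of 2 YFP-positive arrays at days 3, 7 and 14, and on all day 0 and YFP-negative arrays, so its lowest values are near the limit of the signal.

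At day 14 the Hal difference was -7.83 ± 2.01 (adjusted p = 0.237), the widest of the 30 genes, with the arrays entirely apart, and with normexp background correction it was -3.42. Over the mean of days the alternatives ran from -4.66 to -2.26, and 1 of them passed (without YFP-positive day 3 array 3, adjusted p = 0.0389). Within slides YFP-positive cells stood at -1.38 at day 3 and at -0.85 and -1.02 at day 7. No slide held both fractions at day 14.

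**Figure D4:**
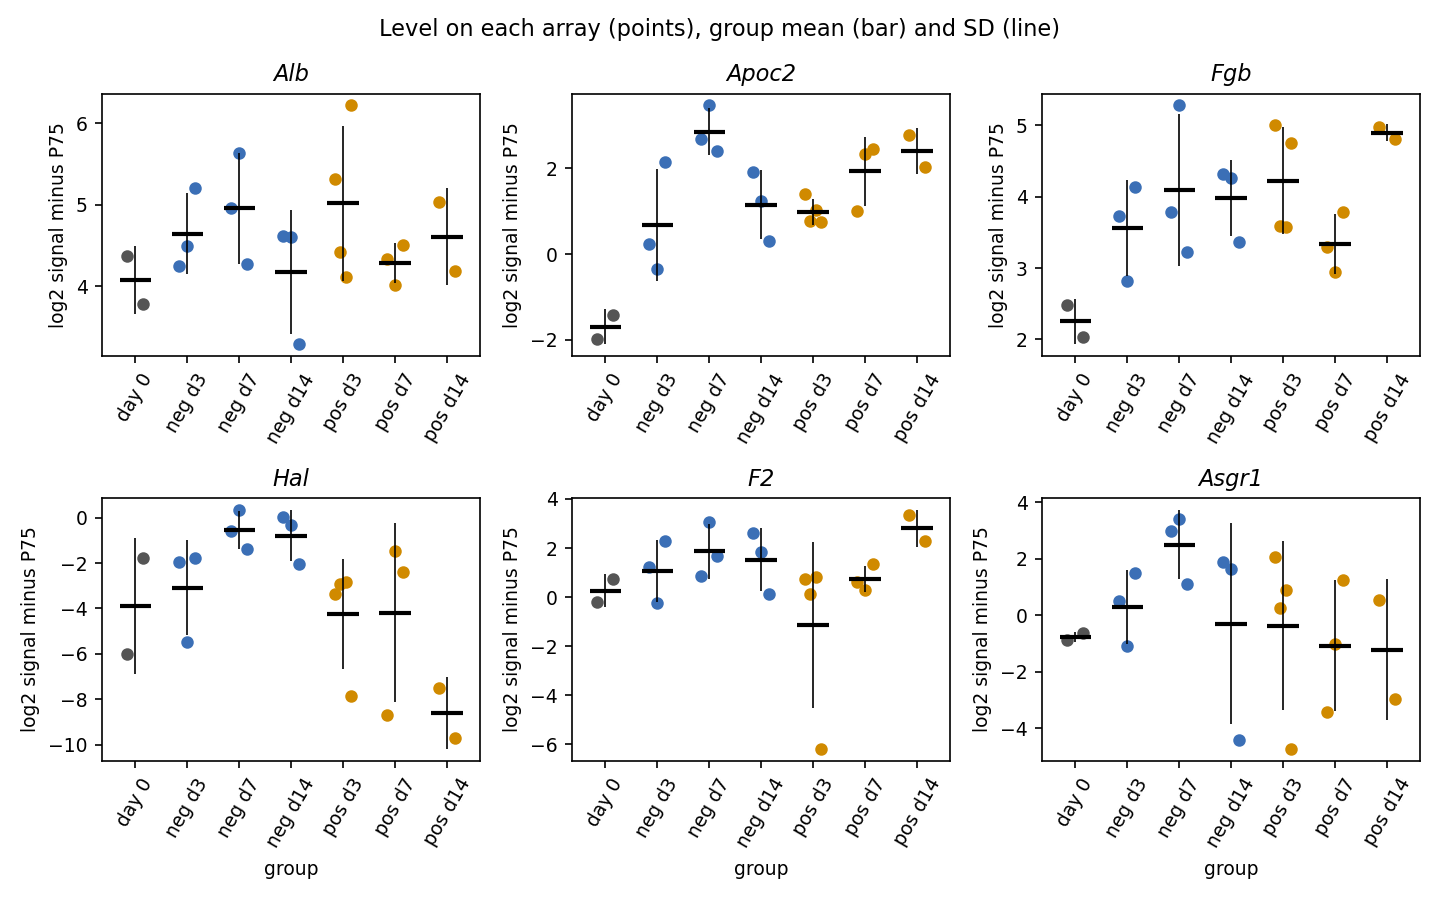
Points are single arrays, bars group means and vertical lines the SD, on the scale of log2 signal minus the array's 75th percentile (P75). Apoc2 and Fgb are lower on both day 0 arrays than on any sorted array, and Hal is low on both YFP-positive day 14 arrays.

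Of the other amino acid enzymes, Tat, tyrosine aminotransferase, had the smallest range of group means, 2.47. Tat read -2.21 and -2.46 on the 2 day 0 arrays. Among YFP-negative cells Tat read -2.18, -4.23 and -1.1 at day 3, -0.36, 0.77 and -0.51 at day 7, and -0.63, 0.52 and -2.17 at day 14. Among YFP-positive cells Tat read -1.02, -1.68, -1.92 and -0.69 at day 3, -2.85, -2.97 and -1.18 at day 7, and -0.89 and -0.8 at day 14. The 3 YFP-negative values at day 7 lie above the 3 YFP-positive ones. That difference, -2.3 ± 0.78, had an unadjusted p of 0.00976 and an adjusted p of 0.732. Tdo2, the first enzyme of tryptophan breakdown, stood at -2.51 ± 1.09 at day 7 and Hpd at -3.28 ± 2.11. The second probe of Tdo2 stood at -5.16.

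In the urea cycle, all 4 genes were lower in YFP-positive cells over the mean of days, without passing. Otc, ornithine transcarbamylase, had the widest range of group means, 5.48. The 2 day 0 arrays gave Otc -9.51 and -3.03. Among YFP-negative cells Otc read -3.06, -7.09 and -1.98 at day 3, -0.25, -0.37 and -1.77 at day 7, and -1.13, -1.4 and -4.43 at day 14. Among YFP-positive cells Otc read -1.5, -1.66, -2.25 and -8.34 at day 3, -3.04, -4.06 and -2.34 at day 7, and -2.35 and -9.39 at day 14. Otc was at its lowest on day 0 array 1, YFP-positive day 14 array 2 and YFP-positive day 3 array 4, where it was not well above background. Its other arrays lie between -7.09 and -0.25, and every group but YFP-negative day 7 and YFP-positive day 7 spans more than 3 units or includes one of those arrays. Its difference between YFP-positive and YFP-negative cells was -1.77 ± 1.25, and its 3 probes ran from -1.77 to -1.33. Against day 0 the probes disagreed in size, from 0.15 to 3.0.

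Arg1, liver arginase, had the smallest range of group means in the cycle, 2.23. For Arg1 the day 0 values were -2.23 and -1.44. Among YFP-negative cells Arg1 read -1.68, -4.82 and -0.68 at day 3, -0.07, 0.74 and -1.16 at day 7, and -0.5, 0.11 and -1.59 at day 14. Among YFP-positive cells Arg1 read -1.21, -3.16, -1.86 and -3.17 at day 3, -1.75, -2.06 and -1.59 at day 7, and -2.08 and -1.16 at day 14. At day 7 all 3 YFP-positive values of Arg1 lie below all 3 YFP-negative ones. The difference was -1.64 ± 0.87 at day 7 and -0.85 ± 0.52 over the mean of days. Cps1, the mitochondrial enzyme that fixes ammonia, stood at -1.19 ± 0.98.

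In gluconeogenesis, Fbp1, fructose 1,6-bisphosphatase, had a range of group means of 2.71 and G6pc of 1.47. Fbp1 read -1.72 and -0.8 on the 2 day 0 arrays. Among YFP-negative cells Fbp1 read -1.39, -3.09 and 0.81 at day 3, 1.71, 1.36 and -0.05 at day 7, and 1.21, 0.65 and -3.02 at day 14. Among YFP-positive cells Fbp1 read -0.01, -1.33, -1.57 and -2.87 at day 3, -2.19, -2.79 and -0.12 at day 7, and 0.53 and 0.1 at day 14. Fbp1 at day 7 did not overlap between fractions, with a difference of -2.71 ± 1.14 (unadjusted p = 0.0305, adjusted p = 0.858). Its values at day 3 and day 14 overlap.

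The 2 day 0 arrays gave G6pc -1.28 and -1.98. Among YFP-negative cells G6pc read -3.04, -3.48 and -1.33 at day 3, -2.21, -2.11 and -3.11 at day 7, and -2.77, -3.3 and -3.07 at day 14. Among YFP-positive cells G6pc read -1.83, -1.96, -2.63 and -1.01 at day 3, -4.09, -3.07 and -2.14 at day 7, and -1.65 and -3.37 at day 14. G6pc has its highest group mean at day 0, and YFP-negative cells at days 7 and 14 and YFP-positive cells at day 7 lie entirely below both day 0 arrays (backgrounds 23.1%, 31% and 25.7%). The differences from day 0 were -0.85 ± 0.72, -1.42 ± 0.72 and -1.47 ± 0.72, none of which passed.

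The asialoglycoprotein receptor, a heteromer on the hepatocyte surface that takes up desialylated plasma glycoproteins, is encoded by Asgr1 and Asgr2. Asgr1 read -0.89 and -0.64 on the 2 day 0 arrays. Among YFP-negative cells Asgr1 read 0.49, -1.1 and 1.51 at day 3, 2.99, 3.4 and 1.1 at day 7, and 1.88, 1.62 and -4.41 at day 14. Among YFP-positive cells Asgr1 read 2.07, 0.25, 0.9 and -4.72 at day 3, -3.42, -1.03 and 1.23 at day 7, and 0.54 and -2.98 at day 14. The lowest values of Asgr1 are YFP-positive day 3 array 4 and YFP-negative day 14 array 3, so both fractions hold low arrays. Its difference between fractions was -1.72 ± 1.08 over the mean of days and -3.57 ± 1.83 at day 7.

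For Asgr2 the day 0 values were -0.84 and -0.14. Among YFP-negative cells Asgr2 read 0.98, -3.98 and 1.58 at day 3, 2.7, 2.71 and 1.52 at day 7, and 1.81, 1.55 and -0.93 at day 14. Among YFP-positive cells Asgr2 read 1.89, -0.1, 0.17 and -2.32 at day 3, -4.92, 0.59 and 1.77 at day 7, and -0.3 and 0.89 at day 14. Asgr2 read lowest on YFP-positive day 7 array 1 and YFP-negative day 3 array 3. Its differences were -1.1 ± 0.96 over the mean of days and -3.16 ± 1.63 at day 7. Both subunits had their highest group mean in YFP-negative cells at day 7.

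By day, the direction of the list in YFP-positive against YFP-negative cells was not the same. At day 3, 18 of the 30 genes were positive (background 57.1%), with a median of 0.38, and without YFP-negative day 3 array 3 the median was -0.96. At day 7, 2 of 30 were positive (50.2%), Ambp and Apob, although the 5 probes of Apob ran from -0.68 to 0.52, with a median of -1.81 where all genes had 0. At day 14, 18 of 30 were positive (55.4%), with a median of 0.73, and without YFP-negative day 14 array 3 it was -0.04. At each day 0 of the 30 were called by limma (backgrounds 0%, 0% and 0.0225%), and 1, 3 and 1 had an unadjusted p under 0.05, against 7.84, 5.27 and 12.3 percent of all genes.

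At day 7 the arrays of 7 genes were entirely lower in YFP-positive cells (background 5.11%), and all 7 were enzymes: Hal, Tat, Hpd, Ass1, Arg1, Otc and Fbp1. None of the 18 secreted proteins was entirely apart. The day 7 median was between -2.28 and -1.03 under every alternative, with 1 to 5 genes positive, and -1.03 came without YFP-negative day 7 array 3. The 2 slides that held both fractions at day 7 differed, with 2 of 30 genes positive and a median of -1.98 on one, and 22 of 30 positive and a median of 0.24 on the other.

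At day 14 the arrays of 9 genes were entirely higher in YFP-positive cells, all of them secreted proteins, at a background of 20.6%: Trf, Ambp, Ahsg, Apob, Apoc2, Apoh, Fga, Fgb and Fgg. Hal was the 1 gene entirely lower (background 13.6%). At day 14, 16 of 18 secreted proteins and 2 of 10 enzymes were positive, with medians of 1.03 and -0.98. The difference between secreted proteins and enzymes was not tested. On the 1 slide with both fractions at day 3, YFP-positive cells were higher for 26 of 30 genes, with a median of 1.19.

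**Figure D5:**
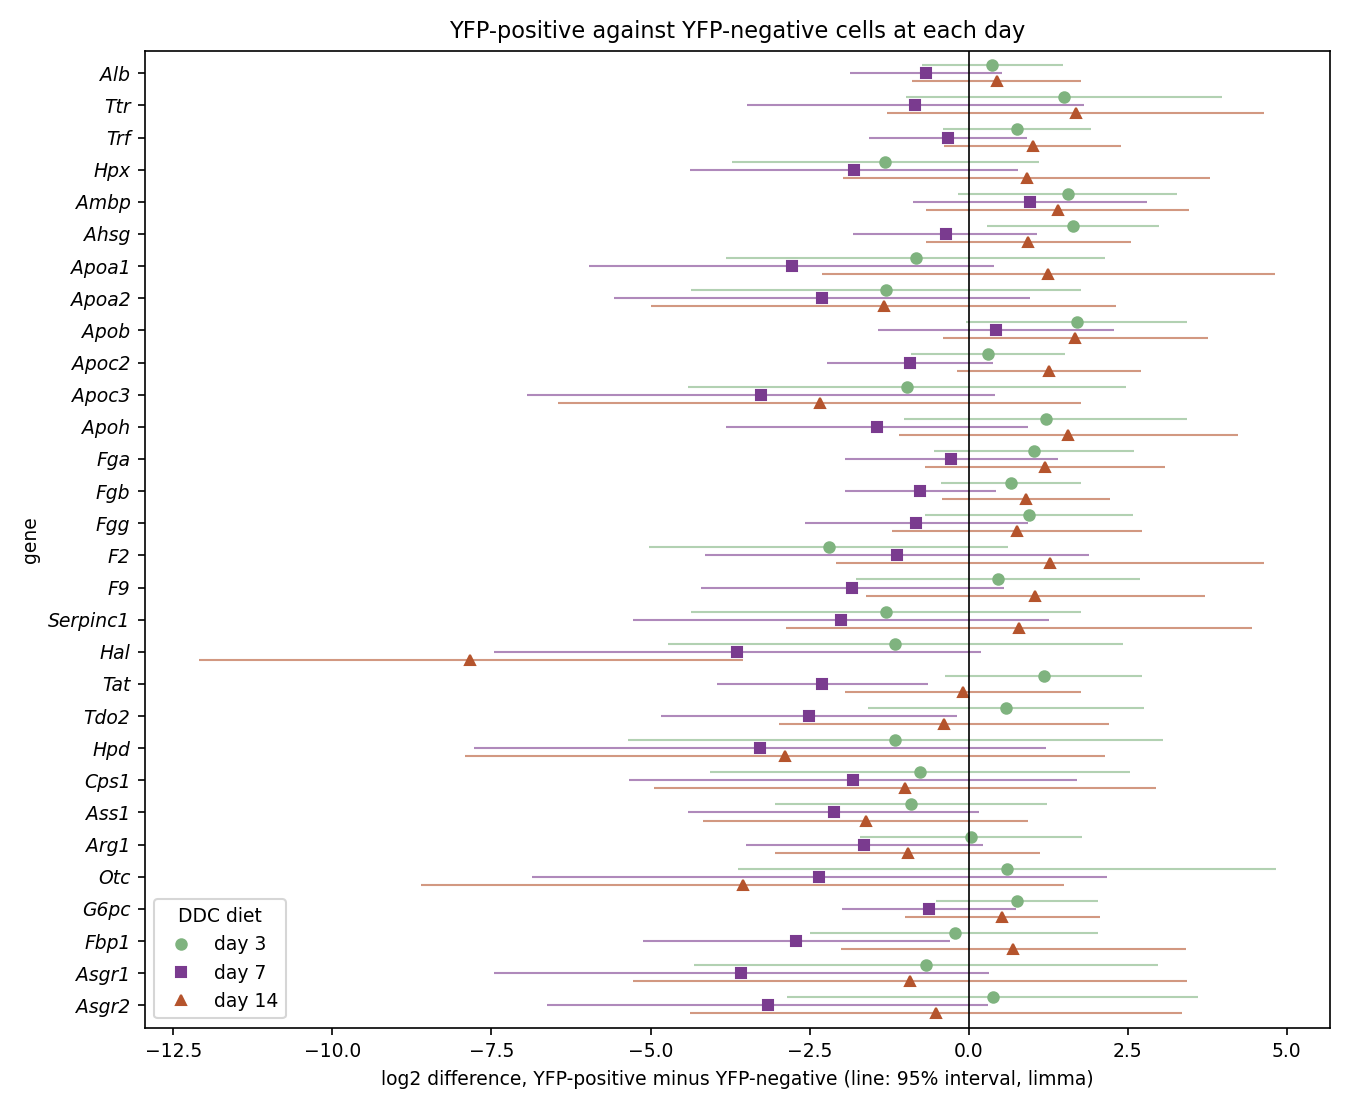
Points are the log2 differences between YFP-positive and YFP-negative cells for 30 hepatocyte genes at day 3 (circles), day 7 (squares) and day 14 (triangles), and lines are limma's 95% intervals. At day 7, 28 of the 30 squares lie left of 0, and the widest difference is Hal at day 14 (-7.83).

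Within each fraction, no hepatocyte gene passed between days 3 and 14. In YFP-negative cells 23 of 30 were higher at day 14 (background 45.8%), with a median of 0.85 that was -0.07 without day 3 array 3. Of the 30, 0 were called (0%) and 1, Tat at 1.74 ± 0.78, had an unadjusted p under 0.05 (3.69% of all genes). Without day 3 array 3 the Tat difference was 0.88. On the 2 slides that held both days, 28 of 30 and 1 of 30 were higher. In YFP-positive cells 19 of 30 were higher (47.4%), with a median of 0.64, from 0.23 with the slide block to 1.08 without day 3 array 1. There 0 were called (background 0.0263%) and 3 had an unadjusted p under 0.05 (6.36%): F2 at 3.93 ± 1.5, Apoc2 at 1.43 ± 0.65 and Hal at -4.37 ± 1.91. The F2 difference rests in part on day 3 array 4, without which it was 2.24 (adjusted p = 0.443). The Hal difference was -5.58 without that array and -0.9 with normexp background correction. The change in YFP-positive cells minus that in YFP-negative cells had a median of -0.1, from -0.7 to 0.58 over the alternatives, with 13 of 30 positive (51.6%), 0 called (0%) and 1, Hal at -6.67 ± 2.62, with an unadjusted p under 0.05 (2.85%). With normexp background correction this Hal value was -2.52.

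Other hepatocyte genes, taken from 5 lists that hold none of the 30, had no call by limma in any comparison. Of 23 other plasma proteins, such as complement and inter-alpha-trypsin inhibitor components, 22 were positive in sorted cells against day 0, with a median of 1.06. Of 16 cytochrome P450 and conjugation genes, 0 were positive in YFP-positive against YFP-negative cells at day 7 (median -2.33), and of 12 further genes of the urea cycle, amino acid breakdown and gluconeogenesis 1 was (median -1.31). Of 10 bile acid genes 1 was positive there (median -1.34). Of the 14 hepatocyte transcription factors 6 were (median -0.21), and of the other plasma proteins 2 of 23 (median -1.4). At days 3 and 14, 13 and 12 of the transcription factors and 12 and 20 of the other plasma proteins were positive. The differences between lists were not tested. Unadjusted p-values under 0.05 over the mean of days numbered 2, 4, 4, 2 and 6 in the order of these lists, against 21.4% of all genes. Of all genes, 32.6% were positive in sorted cells against day 0. The count of 22 against day 0 is that of the plasma protein list alone. In the same comparison the direction was mixed among bile acid genes, with Abcb11 and Baat higher and Cyp8b1 and Slco1a1 lower. It was mixed among the transcription factors too, with Hnf4a higher and Nr0b2 lower. In YFP-positive against YFP-negative cells, 57.1%, 50.2% and 55.4% of all genes were positive at days 3, 7 and 14.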

How the data were processed

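RNA from sorted or total non-parenchymal liver cells was amplified, labelled with Cy3 and hybridised to 1-colour Agilent mouse arrays, per the labels. The authors deposited scanner intensity files, made with Agilent Feature Extraction 10.5.1.1 on build mm9, per the file headers (the submitters' processing notes name version 9.53). The processed intensity is background-subtracted and detrended within an array, per the file headers, and not normalized between arrays. The authors' deposited table holds a fold change against day 0, a signed score in which a fall is written as minus the inverse, and a false discovery rate in percent, also read as a score, by a method not given in the sources used here.

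From the intensities, log2 values minus each array's 75th percentile were computed (R 4.3.3, limma 3.58.1). Spots of a probe were averaged, a probe had to be well above background on 2 or more arrays, and a gene's brightest such probe stood for it. limma (lmFit, eBayes) was fitted to 7 groups and 20 arrays, with Benjamini-Hochberg adjustment over 26665 genes and a threshold of 0.05. The script was tested on simulated data. Alternatives changed the background correction, normalization, filter, probe choice, slide block, replicate block and prior, and left out each array. The 6 samples without a scanner file were not analysed here. The members, the other gene lists, the motifs and the tests were chosen with earlier results of these data known. The listed genes given on all arrays are those with the widest and narrowest range of group means in each role, and Fgb was added after its values were seen.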

Additional observations from a re-analysis of the deposited data

Results flagged for a closer look

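In the 1 group with 4 arrays, YFP-positive day 3, a gene was singled out where the highest or lowest array stood far from the others by Dixon's criterion. Of 30 genes, 4 did so, all through a low value on array 4: F2 at -6.18, Hal at -7.85, Ass1 at -5.21 and Otc at -8.34. Chance alone singles out about 1 in 20 such sets, and the 30 sets share the same 4 arrays. Hal and Otc were not well above background on that array.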

How the results depend on the processing

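Across the alternatives, Apoc2 kept its direction and not always its side of the threshold. For all sorted cells against day 0, 0 of the 30 genes were called with normexp background correction (Apoc2 at 3.14, adjusted p = 0.0914) and with the slide as a fixed block (3.10, 0.599). In YFP-negative cells at day 7, 0 were called with the slide block (3.82, 0.995) and with YFP-negative day 7 array 3 and YFP-positive day 3 array 4 left out together, a setting chosen after seeing the data (4.24, 0.135). In YFP-positive cells at day 14, 0 were called with normexp (3.85, 0.16), the mean of all kept probes (4.11, 0.0512) and the slide block (4.42, 0.201). In YFP-positive cells at day 7, 1 gene, Apoc2, was called with quantile normalization (3.82, 0.0416) and with an intensity trend and robust prior (3.63, 0.0368). Leaving out 1 array at a time gave 0 to 1 called genes in these 4 comparisons and over the mean of days, where Hal was the 1. The median over the 30 genes at day 3 ran from -0.96 without YFP-negative array 3 to 0.97 without YFP-negative array 4. The cause was not tested in any of these. The slide block changed the sign of 52 of 420 gene differences, the most of any setting.

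Whether replicate numbers pair the samples was not settled. Deviations of 43 same-numbered pairs correlated with a median of 0.01 (-0.24 to 0.39), against 0 for 127 other pairs. Most same-numbered pairs join different days, so this median cannot exclude pairing of the fractions within a day. For YFP-positive and YFP-negative samples of the same day and number, the correlation ran from -0.24 at day 14 to 0.39 at day 7. Whether such samples came from the same sort was not tested. With the replicate block, 0 genes were called in all sorted cells (Apoc2 at 3.28, adjusted p = 0.118), in YFP-negative cells at day 7 (4.40, 0.212) and in YFP-positive cells at day 14 (4.11, 0.109). With 2 arrays in the smallest groups, the number of arrays limits the precision.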
